A study of Oryza sativa with 24 samples.

Results

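H3K27me3-only peaks are regions of the japonica rice cultivar Nipponbare that carried H3K27me3 and none of the other 3 marks profiled in the same shoots. They were selected on the measured Nipponbare peak lists: an H3K27me3 peak qualified if it was under 3000 bp wide (end minus start) and overlapped no peak of H3K4me3, H3K9ac or DNA methylation by even 1 bp. Of the 17479 H3K27me3 peaks of Nipponbare, 2454 overlapped none of these lists. Of those, 82 were 3000 bp or wider and were left out, which gave 2372 H3K27me3-only peaks. They made up 14.3% (95% interval 13.8 to 14.9%) of the 16540 narrow peaks, those under 3000 bp. The other 14168 narrow peaks overlapped at least 1 other mark: 13728 overlapped H3K4me3 or H3K9ac, here called active marks, and 440 overlapped DNA methylation alone.

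The study profiled shoots of seedlings at the 4-leaf stage, grown in soil for 4 weeks, in 93-11 (an indica cultivar), the reciprocal F1 hybrids labelled Nipponbare/93-11 and 93-11/Nipponbare, and Nipponbare. Which parent of each hybrid bore the seed is not stated. Histone marks were read by chromatin immunoprecipitation, and methylated DNA by an enrichment that the sample titles link to McrBC, an enzyme that cuts methylated DNA. No treatment is named for any line. With 1 library per mark and line, differences between lines could not be tested, and there are no p-values. All intervals are exact Clopper-Pearson 95% intervals, or order-statistic intervals for a median, and cover counting error over peaks only.

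H3K27me3 is deposited by Polycomb repressive complex 2, and in plants it marks genes that are kept silent in a given tissue or stage, among them many regulators of development. H3K4me3 and H3K9ac mark the start regions of transcribed genes. Cytosine methylation in rice is concentrated on transposable elements and repeats, and is generally found apart from Polycomb domains in plant genomes. Whole shoots contain many cell types, so marks that overlap in a line need not lie on the same molecules, and a region without an active mark may carry it in a cell type too rare to give a peak. Read depth behind the lists is unknown. Where a line's list holds no peak at a region, the mark is called not listed there.

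H3K27me3-only peaks were slightly narrower than other narrow peaks. Their widths ran between 408 and 2996 bp with a median of 1312 bp (1285 to 1336 bp), against a median of 1421 bp (1408 to 1432 bp) for the other narrow peaks. The share of narrow peaks that were H3K27me3-only fell with width. It was 19.9% (18.5 to 21.4%) under 1000 bp, 14.4% between 1000 and 1500 bp, 12.7% between 1500 and 2000 bp and 10.9% between 2000 and 3000 bp. A narrower peak has less room to overlap another list, and the width limit is part of the definition, so these values describe the choice of regions. Among the 939 peaks of 3000 bp or more, 8.73% (7.01 to 10.7%) had no other mark.

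Regions on either side of the width limit are given as a description of the choice. The 3 widest members lay at 29540502 to 29543498 on chromosome 2 (2996 bp), at 4735957 to 4738948 on chromosome 3 (2991 bp) and at 8722071 to 8725058 on chromosome 11 (2987 bp). The 3 nearest peaks outside the limit lay at 19860487 to 19863488 on chromosome 12 (3001 bp), at 43026761 to 43029763 on chromosome 1 (3002 bp) and at 22354143 to 22357145 on chromosome 9 (3002 bp). Each of those 3 excluded peaks carried H3K27me3 and no other mark in all 4 lines. Inside the limit, the chromosome 3 region did so too. The chromosome 2 region had H3K4me3 added in Nipponbare/93-11, and the chromosome 11 region was not listed for any mark in 93-11. The 2 narrowest members, of 408 bp at 17199866 to 17200274 on chromosome 10 and 425 bp at 6261015 to 6261440 on chromosome 2, differed from each other. The first was listed for H3K27me3 alone in all 4 lines, and the second for no mark in any other line.

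H3K27me3 was listed again at most of these regions in each of the other lines, although a little less often than at the other narrow peaks. In 93-11, 70.8% (68.9 to 72.6%) of H3K27me3-only peaks overlapped an H3K27me3 peak, against 78.4% (77.7 to 79.0%) of the other narrow peaks and 77.3% of all narrow peaks. In Nipponbare/93-11 the share was 81.7% (80.0 to 83.2%) against 89.2% of the other narrow peaks (88.1% of all narrow peaks). In 93-11/Nipponbare it was 81.1% (79.4 to 82.6%) against 88.2% (87.2% of all). The H3K27me3 lists differed in length, with 18761 peaks in 93-11, 20360 in Nipponbare/93-11 and 20460 in 93-11/Nipponbare. How far this bears on differences between lines was not tested. All 3 other lines listed H3K27me3 at 63.2% (61.2 to 65.1%) of the H3K27me3-only peaks, or 1499 regions, against 73.8% (73.1 to 74.6%) of the other narrow peaks and 72.3% of all narrow peaks. No other line listed it at 10.1% (8.89 to 11.4%), or 239 regions, against 6.02% (5.63 to 6.42%) of the other narrow peaks and 6.6% of all.

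**Figure D1:**
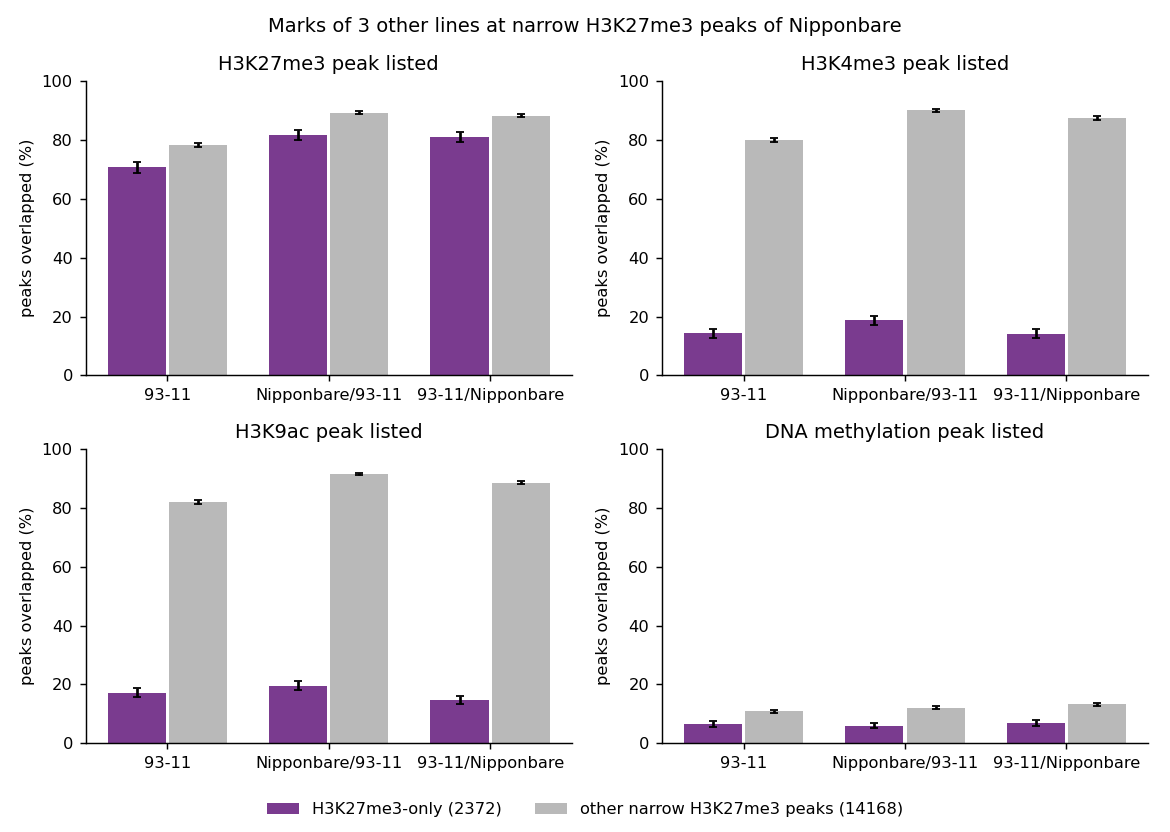
Percent of Nipponbare peaks overlapped by a peak of each mark (4 panels) in 93-11 and the 2 hybrids, for H3K27me3-only peaks (left bar of each pair) and the other narrow H3K27me3 peaks (right bar); error bars are exact 95% intervals over peaks, with 1 library for each bar pair. H3K27me3 was listed at 70.8 to 81.7% of H3K27me3-only peaks, while H3K4me3, H3K9ac and DNA methylation were each listed at under 20% of them.

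The size of this gap differed with width. Among peaks under 1000 bp, 46.9% (42.9 to 50.9%) of H3K27me3-only peaks and 49.1% (47.1 to 51.1%) of other narrow peaks had H3K27me3 in all 3 other lines, and these intervals overlap. Between 1000 and 1500 bp the shares were 63.2 and 72.1%, and between 1500 and 2000 bp 75.8 and 83.5%. Between 2000 and 3000 bp they were 73.5% (68.7 to 77.9%) and 86.3% (85.1 to 87.6%), so the widest class held the widest gap.

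**Figure D2:**
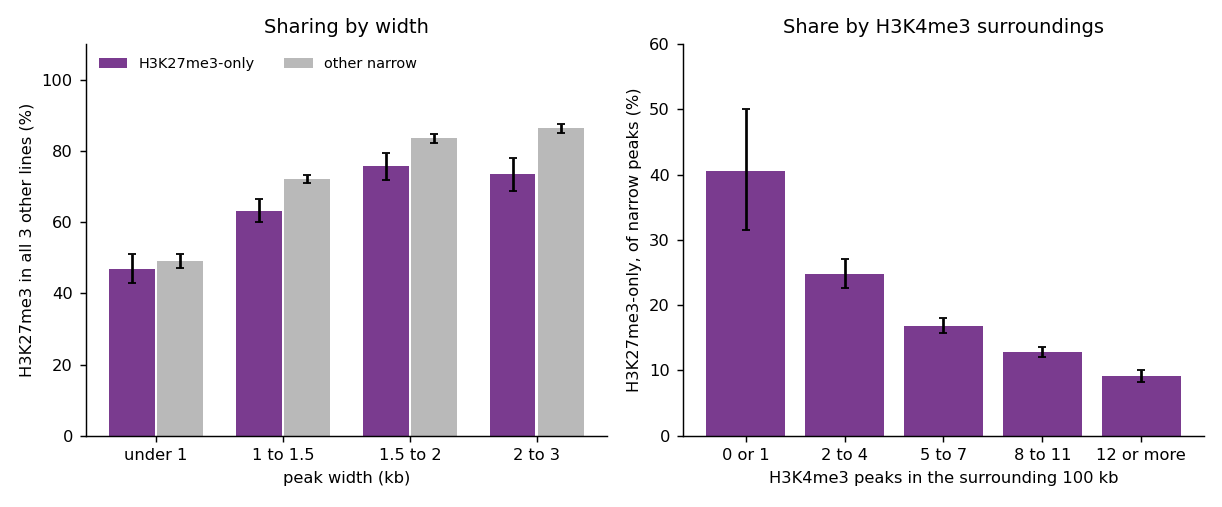
Left, percent of H3K27me3-only peaks (left bar of each pair) and other narrow H3K27me3 peaks (right bar) with H3K27me3 listed in all 3 other lines, by peak width in kb. Right, percent of narrow H3K27me3 peaks that are H3K27me3-only, by the number of H3K4me3 peaks in the surrounding 100 kb; error bars are exact 95% intervals. The left panel shows shares near 47 to 49% for both sets under 1 kb and a gap of 73.5 against 86.3% at 2 to 3 kb; the right panel falls to 9.10% where 12 or more H3K4me3 peaks lie nearby, against 40.5% with 0 or 1.

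Where H3K27me3 was listed, the peak in the other line was wider than in Nipponbare at more than 50% of regions, as it was at narrow peaks in general. Its median width was 1472 bp (1446 to 1505 bp) in 93-11, against a Nipponbare width of 1372 bp for the same 1679 regions. In Nipponbare/93-11 these medians were 1497 and 1369 bp over 1937 regions, and in 93-11/Nipponbare 1507 and 1367 bp over 1923 regions. The other line's peak was the wider one at 61.4% (59.0 to 63.7%), 65.5% (63.3 to 67.6%) and 68.0% (65.9 to 70.1%) of regions, against 57.6, 63.5 and 65.6% of all narrow peaks. The peak was 3000 bp or wider at 3.63% of regions in 93-11, 3.51% in Nipponbare/93-11 and 4.42% in 93-11/Nipponbare, against 2.89, 3.12 and 3.67% of all narrow peaks. It also reached a second H3K27me3 peak of Nipponbare at 14, 15 and 19 regions in the same order of lines, or 0.834, 0.774 and 0.988%, against 0.485, 0.474 and 0.603% of all narrow peaks.

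H3K4me3 and H3K9ac, not listed in Nipponbare by definition, were listed at a minority of the regions elsewhere. H3K4me3 was listed at 14.2% (12.9 to 15.7%) in 93-11, 18.7% (17.2 to 20.3%) in Nipponbare/93-11 and 14.2% (12.8 to 15.6%) in 93-11/Nipponbare. Over all narrow peaks, most of which carry H3K4me3 in Nipponbare, these shares were 70.5, 79.8 and 76.9%. H3K9ac was listed at 17.1% (15.6 to 18.7%), 19.5% (17.9 to 21.2%) and 14.7% (13.3 to 16.2%), against 72.7, 81.2 and 78% of all narrow peaks. At least 1 active mark in at least 1 other line was listed at 35.6% (33.7 to 37.5%) of H3K27me3-only peaks, or 844 regions (87% of all narrow peaks). All 3 lines listed one at 14.0% (12.6 to 15.5%), or 332 regions (73.7% of all narrow peaks). Exactly 1 line did so at 281 regions and exactly 2 at 231, shares of 11.8 and 9.74% (3.95 and 9.32% of all narrow peaks).

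Where an active mark was listed, it was single more often than at the other narrow peaks. In 93-11, 542 regions had an active mark (22.8%, against 76.4% of all narrow peaks), of which 202 had both, 136 H3K4me3 alone and 204 H3K9ac alone. In Nipponbare/93-11 there were 661 (27.9%, against 85% of all), with 246 carrying both, and in 93-11/Nipponbare 536 (22.6%, against 82.5% of all), with 148 carrying both. As a share of the regions with an active mark, 1 mark alone was listed at 62.7% (58.5 to 66.8%) in 93-11, 62.8% in Nipponbare/93-11 and 72.4% in 93-11/Nipponbare, against 10.2, 7.89 and 9.83% of the other narrow peaks with one. Nearly all of those other peaks were chosen by carrying an active mark in Nipponbare. H3K27me3 was usually listed along with the active mark. At the regions with an active mark, 93-11 listed H3K27me3 at 88.6% (85.6 to 91.1%), against 65.5% (63.3 to 67.7%) at those without one. In Nipponbare/93-11 these shares were 91.4 and 77.9%, and in 93-11/Nipponbare 91.0 and 78.2%. The other narrow peaks with an active mark were close to this, with H3K27me3 listed at 86.7, 89.7 and 89.2%. The other narrow peaks without an active mark were not counted in this way. Whether the difference between regions with and without one is particular to H3K27me3-only peaks was therefore not tested, nor was the part of width in it. An active mark without H3K27me3 was listed at 62 regions (2.61%) in 93-11, 57 (2.40%) in Nipponbare/93-11 and 48 (2.02%) in 93-11/Nipponbare, against 10.1, 8.71 and 8.85% of all narrow peaks, which carry active marks more often.

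DNA methylation was listed at few of these regions in any line. The shares were 6.62% (5.65 to 7.70%) in 93-11, 6.03% (5.10 to 7.06%) in Nipponbare/93-11 and 6.96% (5.96 to 8.06%) in 93-11/Nipponbare, against 10.2, 11.3 and 12.3% of all narrow peaks. At least 1 other line listed it at 11.2% (9.93 to 12.5%), or 265 regions (16.3% of all narrow peaks), and all 3 did so at 65 regions, or 2.74% (6.81% of all narrow peaks). All narrow peaks include those methylated in Nipponbare, which the definition of H3K27me3-only leaves out. How far that sets these contrasts was not tested. The 11.2% was 5.92% where 50% of a peak had to be covered, both in the definition and in the other lines, and 22.2% where regions methylated in Nipponbare were let in.

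Counted by bases, the active marks covered these regions far less than the other narrow peaks, and DNA methylation covered them less than the genome as a whole. In 93-11, H3K4me3 peaks covered 11.6% of the bases of H3K27me3-only regions and 11.1% of the 372 Mb spanned by the lists. In Nipponbare/93-11 these values were 15.7 and 12.2%, and in 93-11/Nipponbare 11.7 and 12.7%. H3K9ac covered 13.7, 15.0 and 11.3% of the regions' bases in the same lines, against 12.03, 13.3 and 12.8% of the span. Of the bases of the other narrow peaks, H3K4me3 covered 68.0, 77.4 and 76.4% and H3K9ac 70.7, 79.4 and 76.5%. DNA methylation covered 3.33, 2.80 and 2.99% of the bases of H3K27me3-only regions, against 10.6, 12.9 and 13.1% of the span. The other narrow H3K27me3 peaks were also below the span for DNA methylation, at 4.16, 4.58 and 5.005% of their bases. Regions listed with an active mark or as methylated in Nipponbare were removed by definition, and how far that carries over to the other lines was not tested.

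Sorted by all marks together, the largest class in each line kept the Nipponbare state. Most of all narrow peaks carry an active mark in Nipponbare, while these regions have none by definition. How far that sets the contrasts with all narrow peaks was not tested. H3K27me3 without any other mark was listed at 47.7% (45.7 to 49.8%) of regions in 93-11, 53.1% (51.1 to 55.1%) in Nipponbare/93-11 and 56.0% (54.0 to 58.0%) in 93-11/Nipponbare, against 9.55, 9.93 and 11.1% of all narrow peaks. H3K27me3 with an active mark was listed at 20.2% in 93-11, 25.5% in Nipponbare/93-11 and 20.6% in 93-11/Nipponbare, against 66.3, 76.2 and 73.7% of all narrow peaks. No mark was listed at 23.8% (22.1 to 25.5%), 14.4% and 15.7% of regions in the same lines, against 10.6, 2.61 and 3.2% of all narrow peaks. In 93-11 this was the second largest class. The 93-11 list was shorter than that of either hybrid for each mark. The part of list length in these differences was not tested.

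**Figure D3:**
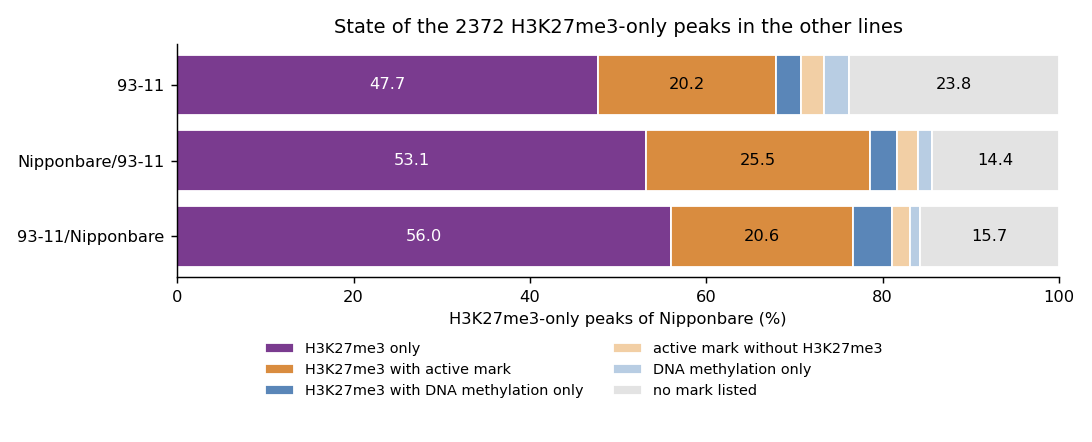
Percent of the 2372 H3K27me3-only peaks of Nipponbare in each of 6 states in 93-11 and the 2 hybrids (rows), with 1 library for each mark and line. H3K27me3 without another mark is the largest class in each row, at 47.7, 53.1 and 56.0%, and the class with no mark listed is largest in 93-11, at 23.8%.

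The limit given above on contrasts with all narrow peaks holds for combinations of states too. Over the 3 other lines, 111 combinations of states occurred. The most frequent was H3K27me3 without another mark in all of them, at 742 regions or 31.3% (29.4 to 33.2%), against 5.11% of all narrow peaks. The next was H3K27me3 with an active mark in all 3, at 283 regions (11.9%, against 60.5% of all narrow peaks). At 176 regions (7.42%, against 1.55% of all narrow peaks) both hybrids had H3K27me3 alone and 93-11 no mark, and at 173 regions (7.29%, against 1.28% of all narrow peaks) no mark was listed in any other line. When the definition of H3K27me3-only was applied to each other list, 2926 peaks qualified in 93-11, 2626 in Nipponbare/93-11 and 2978 in 93-11/Nipponbare. These overlapped 45.2, 50.8 and 52.6% of the Nipponbare regions, which is 36.8, 45.8 and 41.9% of those lists. A peak that qualified in all 3 was found at 664 Nipponbare regions, or 28.0%. Overlaps with the peaks that qualified elsewhere were not counted over all narrow peaks. Whether they are particular to H3K27me3-only peaks was therefore not tested.

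The 3 widest regions in the H3K27me3-only state in all 4 lines were the chromosome 3 region above, one at 29044638 to 29047619 on chromosome 7 (2981 bp) and one at 30959445 to 30962412 on chromosome 6 (2967 bp). Their nearest active peaks in Nipponbare lay 3617, 3580 and 3164 bp away. The 3 widest with no mark in any other line lay at 24762719 to 24765629 on chromosome 8 (2910 bp), at 15781643 to 15784208 on chromosome 3 (2565 bp) and at 22451735 to 22454185 on chromosome 9 (2450 bp). The last of these stood 98 bp from another H3K27me3 peak of Nipponbare.

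Both active marks were listed in all 3 other lines at 73 regions, or 3.08% (63.4% of all narrow peaks). The widest lay at 23878126 to 23881087 on chromosome 1 (2961 bp), at 12943690 to 12946548 on chromosome 11 (2858 bp) and at 21943753 to 21946594 on chromosome 2 (2841 bp). The first kept H3K27me3 in 93-11 and Nipponbare/93-11, and the third kept it in all 3 lines. In Nipponbare the third lay 63 bp from an active peak, the second 243 bp and the first 2201 bp. The chromosome 11 region also had DNA methylation in all 3 other lines, and it kept H3K27me3 in 93-11 alone. In Nipponbare its nearest methylated peak lay 981 bp away and its nearest H3K27me3 peak 33 bp away.

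DNA methylation without a histone mark in all 3 other lines was found at 8 regions, or 0.337% (0.146 to 0.663%), against 0.193% of all narrow peaks. The widest lay at 17731286 to 17733187 on chromosome 11 (1901 bp), at 5880709 to 5882428 on chromosome 5 (1719 bp) and at 7671808 to 7673239 on chromosome 5 (1431 bp). They lay 7061, 1767 and 1564 bp from the nearest methylated peak of Nipponbare, so none of these 3 adjoined one there.

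The hybrids listed H3K27me3 at most regions that both parents shared, and at a smaller part of those not listed in 93-11. Of the 1679 regions with H3K27me3 in 93-11, 89.3% (87.7 to 90.7%) had it in both hybrids and 2.86% in neither, against 94.2 and 1.20% of the other narrow peaks shared with 93-11. Of the 693 regions without it in 93-11, 39.8% (36.2 to 43.6%) had it in both hybrids and 34.5% (30.9 to 38.2%) in neither. For the other narrow peaks not listed in 93-11 these shares were 48.6% (46.8 to 50.4%) and 27.8% (26.2 to 29.5%). Nipponbare/93-11 alone listed 107 of the 693 regions (15.4%) and 93-11/Nipponbare alone 71 (10.2%). The other narrow peaks not listed in 93-11 were close to this, at 14.4 and 9.20%.

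Seen over all members, 276 regions (11.6%, against 10.7% of all narrow peaks) had H3K27me3 in both hybrids and not in 93-11. The widest were the chromosome 11 region from 8722071 to 8725058 and one at 732631 to 735565 on chromosome 7 (2934 bp), where both hybrids had H3K27me3 alone and 93-11 no mark. The reverse, H3K27me3 in 93-11 and in neither hybrid, occurred at 48 regions (2.02%, against 1.09% of all). The widest were the methylated chromosome 11 region from 12943690 to 12946548 and a region at 17552442 to 17555213 on chromosome 11 (2771 bp), which had no mark in either hybrid.

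Active marks of 93-11 at these regions were listed in the hybrids less often than those at the other narrow peaks. Nearly all of those other peaks were chosen by carrying an active mark in Nipponbare, while these regions have none there by definition. How far that sets the contrast was not tested. Of the 542 regions with an active mark in 93-11, 61.3% (57.0 to 65.4%) had one in both hybrids and 13.5% (10.7 to 16.6%) in neither. By hybrid the shares were 78.6% (74.9 to 82.0%) in Nipponbare/93-11 and 69.2% (65.1 to 73.1%) in 93-11/Nipponbare. For the other narrow peaks with an active mark in 93-11 these values were 98.2% in both hybrids, 0.463% in neither, 99.2% in Nipponbare/93-11 and 98.5% in 93-11/Nipponbare. Where 93-11 had none, both hybrids listed an active mark at 5.14% of 1830 regions and neither did at 83.5%. The other narrow peaks without an active mark in 93-11 were not counted in this way. Whether these 2 shares are particular to H3K27me3-only peaks was therefore not tested.

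H3K27me3-only peaks lay at a wide range of distances from active peaks. Whether they lie nearer or farther than other places free of active peaks was not tested. The nearest active peak of Nipponbare lay at a median distance of 2931 bp (2724 to 3156 bp), edge to edge, over the 2371 regions on nuclear chromosomes, with quartiles of 1254 and 6755.5 bp. H3K4me3 alone was at a median of 3698 bp and H3K9ac alone at 3221 bp. An active peak lay under 500 bp away for 10.5% (9.34 to 11.9%) of regions, between 500 and 2000 bp for 27.3%, between 2000 and 5000 bp for 27.7%, between 5000 and 10000 bp for 18.7%, and at 10000 bp or more for 15.7% (14.3 to 17.3%). The 440 narrow peaks with DNA methylation alone, which also lack active marks by choice, had a median of 4099 bp (3615 to 4664 bp). The nearest DNA methylation peak was at a median of 3567 bp (3275 to 3766 bp), against 3418 bp (3316 to 3524 bp) for narrow peaks with an active mark. Those peaks may overlap DNA methylation, which counts as a distance of 0, while H3K27me3-only peaks cannot by definition. How far that sets this contrast was not tested.

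The first peak of another mark on each side was active on both sides for 32.5% (30.6 to 34.4%) of regions, active on one and methylated on the other for 42.8%, and methylated on both for 24.7% (22.9 to 26.5%). Regions with active peaks on both sides had an active mark in another line at 46.7% (43.1 to 50.3%), against 23.9% (20.5 to 27.6%) of those with methylated peaks on both sides. They had H3K27me3 in all 3 other lines at 68.9% (65.5 to 72.1%), against 57.4% (53.3 to 61.5%), and DNA methylation in at least 1 at 7.26 against 13.7%. Their median widths were 1413 and 1194 bp, and the part of width in these differences was not tested. A region was only rarely enclosed tightly: an active peak stood under 1000 bp away on both sides at 14 regions, and under 5000 bp at 541 (22.8%).

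Active marks in other lines were listed most often at regions close to an active peak of Nipponbare. Their share in at least 1 other line was 58.4% (52.0 to 64.6%) of the 250 regions under 500 bp from one and 17.4% (13.7 to 21.7%) of the 373 at 10000 bp or more, with each class between lower than the one before. H3K27me3 in all 3 other lines fell along with it, with 72.4% (66.4 to 77.8%) in the nearest class and 54.4% (49.2 to 59.6%) in the farthest. The share that carried H3K27me3 and nothing else in all 4 lines went the other way, with 24.4% (19.2 to 30.2%) and 35.7% (30.8 to 40.8%). That share leaves out every region with an active mark in another line, so it is linked to the active-mark share by construction. Nearer regions were wider, with median widths of 1571.5 bp in the nearest class and 1174 bp in the farthest, and the part of width in these trends was not tested. Because 1 bp of overlap counts, an adjoining active peak listed slightly wider or shifted in another line is also counted as an active mark there. The part of such cases was not tested.

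**Figure D4:**
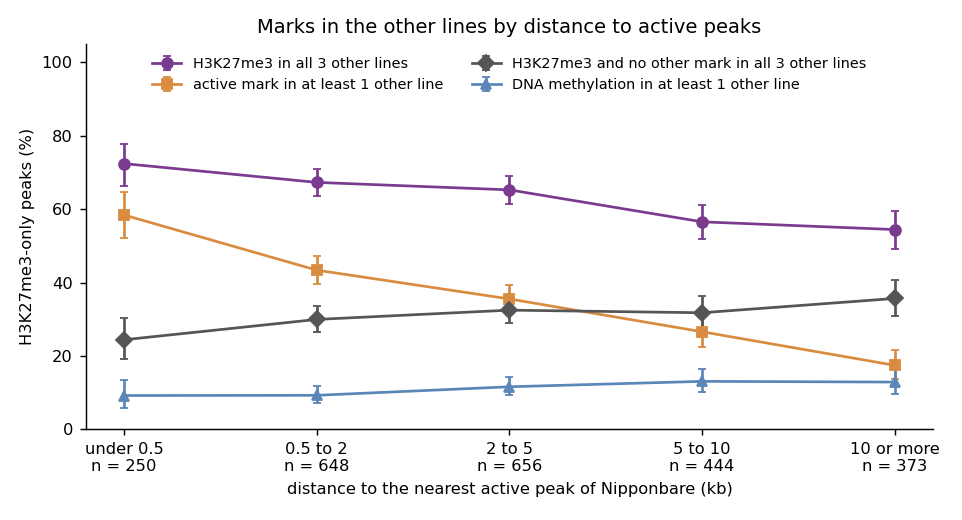
Percent of H3K27me3-only peaks with each of 4 readouts in the other lines (lines), by edge-to-edge distance in kb to the nearest H3K4me3 or H3K9ac peak of Nipponbare (horizontal axis, with the number of regions); error bars are exact 95% intervals over peaks. Active marks in at least 1 other line are at 58.4% in the nearest class and 17.4% in the farthest, while the share with H3K27me3 alone in all 4 lines is 24.4% in the nearest and 35.7% in the farthest. The share with H3K27me3 alone leaves out, by construction, regions with an active mark in another line.

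The 3 regions farthest from an active peak were isolated in different ways. One at 17189201 to 17190493 on chromosome 1 (1292 bp) lay 131023 bp from an active peak and 97079 bp from a methylated one, and no other line listed any mark there. One at 18143440 to 18144783 on chromosome 12 (1343 bp) lay 60970 bp from an active peak. It had H3K27me3 in all 4 lines, with H3K9ac added in Nipponbare/93-11. One at 6589702 to 6590635 on chromosome 9 (933 bp) lay 60260 bp from an active peak among 13 DNA methylation peaks in the surrounding 100 kb, and was H3K27me3-only in all 4 lines.

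Surroundings were counted as peaks with midpoints in a 100 kb window centred on each region. H3K27me3-only peaks had a median of 8 H3K4me3 peaks around them (mean 7.77) and 8 H3K9ac peaks (mean 8.31). Narrow peaks with an active mark had 9 (mean 9.04) and 10 (mean 9.59). DNA methylation peaks were at a median of 6 in both sets, with means of 6.46 and 6.18. The share of narrow peaks that were H3K27me3-only was 40.5% (47 of 116 peaks) where 0 or 1 H3K4me3 peaks lay in the window and 9.10% (8.16 to 10.1%) where 12 or more did. More H3K4me3 peaks leave fewer places free of them, so this is a description of the choice. H3K27me3 in all 3 other lines, which the definition did not use, was listed at 73.8% (68.6 to 78.6%) of the 317 regions with 12 or more H3K4me3 peaks around them and at 49.6% (44.5 to 54.7%) of the 385 with 2 to 4. The 47 regions with 0 or 1 were at 55.3% (40.1 to 69.8%). The other narrow peaks were not split in this way. Whether these differences are particular to H3K27me3-only peaks was therefore not tested, nor was the part of width in them.

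By chromosome, H3K27me3-only peaks made up between 11.7% (10.2 to 13.3%) of narrow peaks on chromosome 2 and 16.7% (14.6 to 18.9%) on chromosome 11. Chromosome 12 followed at 16.4% (14.2 to 18.8%), and the intervals of neighbouring chromosomes in this order overlap. Among members of at least their median width, which are fewer by construction, the order of chromosomes changed: the lowest share was 6.19% on chromosome 10 and the highest 7.83% on chromosome 4. The density of all H3K27me3-only peaks, of any width, was between 5.55 per Mb on chromosome 10 and 7.21 per Mb on chromosome 3. The distance to active peaks and the sharing with other lines varied as well. The median distance to an active peak was 1866 bp on chromosome 2, against 5586.5 bp on chromosome 12 and 4678.5 bp on chromosome 11. H3K27me3 was listed in 93-11 at 59.4% (51.6 to 66.9%) of the regions on chromosome 12 and 64.2% on chromosome 11, against 76.7% (71.1 to 81.7%) on chromosome 3. In all 3 other lines it was listed at 51.2% (43.4 to 58.9%) of regions on chromosome 12, 55.4% (48.3 to 62.3%) on chromosome 11 and 70.6% (64.7 to 76.1%) on chromosome 3. The other narrow peaks were at 70.3, 67.9 and 76.9% on these chromosomes.

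**Figure D5:**
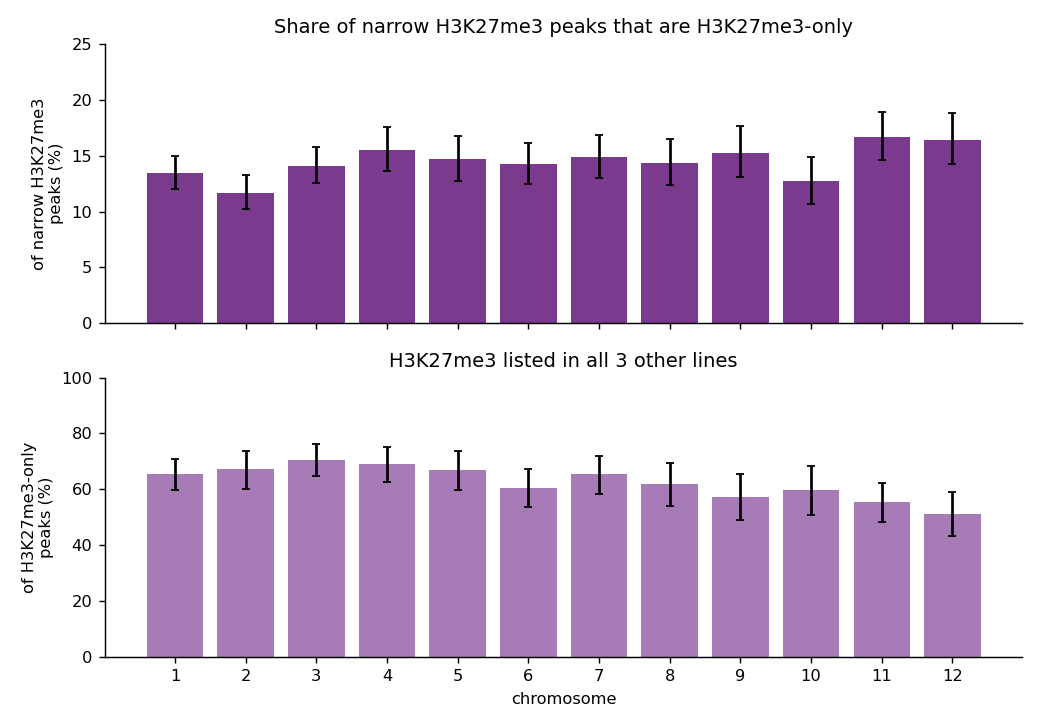
By chromosome (horizontal axis), percent of narrow H3K27me3 peaks of Nipponbare that are H3K27me3-only (top) and percent of those H3K27me3-only peaks with H3K27me3 listed in all 3 other lines (bottom); error bars are exact 95% intervals. The top panel lies between 11.7% on chromosome 2 and 16.7% on chromosome 11; the bottom panel is highest on chromosome 3, at 70.6%, and lowest on chromosome 12, at 51.2%.

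The share varied little with distance to the chromosome end. H3K27me3-only peaks were 12.4% (10.6 to 14.4%) of narrow peaks within 1 Mb of the start or of the last listed peak of a chromosome, 15.2% between 1 and 2 Mb, 14.7% between 2 and 5 Mb, 15.1% between 5 and 10 Mb and 13.5% (12.6 to 14.5%) beyond. H3K27me3 in all 3 other lines lay between 61.6 and 66.2% over these 5 classes. The median distance to an active peak was 2318 bp between 2 and 5 Mb and 3756 bp beyond 10 Mb.

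H3K27me3-only peaks had one of their own kind as a neighbour more often than the other narrow peaks did. Of the 2371 nuclear regions, 744 or 31.4% (29.5 to 33.3%) had another H3K27me3-only peak as a direct neighbour in the H3K27me3 list, against 23.9% (23.2 to 24.6%) of the other narrow peaks. The share was 20.6% among members of at least their median width, a rule that also removes possible neighbours. Another H3K27me3-only peak lay under 2000 bp away for 4.60% (3.79 to 5.52%) of regions, against 1.96% of the other narrow peaks, and under 10000 bp for 19.7% against 12.6%. Any other H3K27me3 peak lay at a median of 5667 bp (5387 to 5960 bp), against 6811 bp (6688 to 6923 bp) for the other narrow peaks. A wide H3K27me3 peak, one of 3000 bp or more, was seldom near: it lay at 10000 bp or more for 94.2% of regions and 94.9% of the other narrow peaks. Stretches without active marks favour such neighbours through the definition, and the part of this in the counts was not tested.

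Most regions were single. Runs of consecutive H3K27me3 peaks that were all H3K27me3-only numbered 248 with 2 peaks, 56 with 3, 15 with 4 and 4 with 5, while 1627 regions (68.6%) had no such neighbour. Regions in runs of 3 or more lay farther from active peaks, at a median of 6408.5 bp against 2443 bp for single ones. They had an active mark in another line at 25.4% (20.1 to 31.3%) against 38.5% (36.1 to 40.9%). H3K27me3 in all 3 other lines was listed at 61.3% (54.9 to 67.4%) of them and at 64.7% (62.3 to 67.0%) of single regions, and these intervals overlap. A run needs consecutive H3K27me3 peaks that all lack an active mark, so the definition favours greater distances to active peaks in runs. The part of this in the distances was not tested, nor was the part of distance in the active-mark shares.

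The 4 runs of 5 differed in what lay between their peaks. At 2442208 to 2470640 on chromosome 5 (28432 bp), no H3K4me3 or H3K9ac peak was listed in any line, and H3K27me3 peaks numbered 5 in 93-11, 6 in Nipponbare/93-11, 5 in 93-11/Nipponbare and 5 in Nipponbare. Of its 5 regions, 4 were H3K27me3-only in all 4 lines, and the fifth was missing from the Nipponbare/93-11 lists alone. At 2761983 to 2791449 on chromosome 7 (29466 bp), again no active peak was listed in any line. H3K27me3 peaks numbered 4, 5, 5 and 5 in the same order, and 4 of the 5 regions were H3K27me3-only in all 4 lines.

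The run at 6541414 to 6621834 on chromosome 9 (80420 bp) lay at 11972 to 60260 bp from active peaks of Nipponbare, and it spanned 4 DNA methylation peaks in 93-11, 6 in Nipponbare/93-11, 7 in 93-11/Nipponbare and 10 in Nipponbare. Of its regions, 3 had H3K27me3 in 93-11, 3 in Nipponbare/93-11 and 4 in 93-11/Nipponbare. The run at 31252087 to 31415499 on chromosome 4 (163412 bp) was of another kind. It spanned 15 H3K4me3 and 20 H3K9ac peaks of Nipponbare, and its 5 regions lay between 312 and 1740 bp from an active peak. None of these 5 was H3K27me3-only in all 4 lines, and 4 of them had an active mark in at least 1 other line.

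Of 3726 windows of 100 kb, 2097 held no H3K27me3-only peak, 1097 held 1 and 373 held 2. The window with most, 9 of its 12 H3K27me3 peaks, lay on chromosome 5 between 2400000 and 2500000, and includes the run above. Its 9 regions, from 2413210 to 2470640, were between 567 and 1771 bp wide and up to 30553 bp from an active peak. All 3 other lines listed H3K27me3 at 7 of the 9, and 6 were H3K27me3-only in all 4 lines. The region from 2413210 to 2414298 was listed for no mark elsewhere, and the region from 2427296 to 2428730 had an active mark in both hybrids. The window as a whole held 11 H3K27me3 peaks in 93-11, 12 in Nipponbare/93-11 and 12 in 93-11/Nipponbare, with 6 H3K4me3 peaks in each of these lines and 5 in Nipponbare.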

How the data were processed

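Each of the 16 files deposited by the authors lists the peaks of 1 library as chromosome, start and end, with no score. Of the peak caller, its threshold, any control and the genome build, the sources used here name none, and read depth is unknown. The labels list 24 samples; the other 8 (mRNA and small RNA) were not analysed here. Positions are printed as deposited, and whether they count from 0 or 1 is not stated.

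Overlap means 1 bp or more. Distances run edge to edge, and are 0 where peaks touch. With 1 library for each mark and line there was no test. The single plastid member was left out of distances, runs and chromosomes. For want of scores, the stricter alternative ranked peaks by width. The regions and rules were chosen with earlier results of these data known. Named regions were the widest of each class, the narrowest, the farthest from active peaks, those next to the width limit, the 3 longest runs and the fullest window; the fourth run of equal length was added after its values were seen.

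Genes were not named: the annotation at hand is of another assembly (ASM3414082v1), and Nipponbare H3K4me3 peaks overlapped its protein-coding genes in 42.4% of cases as given and 42.3% when moved by 100 kb. No sequence of the files' build was used. Routines were tested on simulated data. Scripts ran on Python 3.11.15 with pandas 2.3.3, numpy 2.4.6 and scipy 1.17.1; figures were drawn with matplotlib 3.10.9.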

Additional observations from a re-analysis of the deposited data

How the results depend on the processing

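Of 63 values recomputed under 7 alternatives, 31 stayed within the interval of the value reported (within 1.5 times for the number of regions) and 32 moved beyond it; the cause of these moves was not tested beyond what each alternative's construction fixes. Dropping the width limit and merging H3K27me3 peaks under 500 bp apart moved none. With no other Nipponbare mark within 500 bp, an active mark in another line was at 33.2%, DNA methylation in another line at 9.91%, H3K27me3-only in all 4 lines at 33.4%, the median distance to an active peak at 3540.5 bp, members next to each other at 26.1%, and the chromosome range at 8.72 to 14.0%. With DNA methylation ignored in the definition, methylation elsewhere was at 22.2%, the state in all 4 lines at 27.3%, neighbours at 37.4% and chromosomes at 14.4 to 21.0%. Among members of at least the median width (1186 by construction), H3K27me3 in all 3 other lines was at 73.1%, active marks at 41.7%, the state in all 4 lines at 33.9%, the distance at 2305 bp, neighbours at 20.6% and chromosomes at 6.19 to 7.83%, with chromosome 10 lowest and chromosome 4 highest; under the other 6 alternatives chromosome 2 was lowest and chromosome 11 highest. With 50% of a peak required to be covered, methylation elsewhere was at 5.92%, the state in all 4 lines at 34.0%, the distance at 2316.5 bp, neighbours at 37.6% and chromosomes at 15.6 to 21.5%. With lists cut to the widest peaks and equal length per mark, H3K27me3 in all 3 other lines was at 51.8%, the state in all 4 lines at 25.2%, the distance at 3398 bp, neighbours at 35.3% and chromosomes at 14.0 to 19.9%. No paired analysis was possible because each mark had 1 library per line. Depth is unknown, so a mark not listed may have been below the authors' threshold.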

Other observations

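One H3K27me3-only peak lay on the plastid sequence, from 121417 to 124216 (2799 bp). It was listed for no mark in 93-11, for H3K9ac without H3K27me3 in Nipponbare/93-11, and for H3K9ac with H3K27me3 in 93-11/Nipponbare. It is counted among the 2372 regions.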
